A study of Homo sapiens with 9 samples.

Results

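BRG1 and BRM, encoded by SMARCA4 and SMARCA2, are the alternative ATPase motors of the SWI/SNF chromatin remodelling complexes, of which each assembled complex carries one. These complexes slide and evict nucleosomes and keep enhancers open, and the BRG1 gene is recurrently inactivated in non-small cell lung carcinoma. BRM is often retained in such tumours and can occupy the complex in place of BRG1. The knockouts of these paralogues were set directly against each other, a comparison that asks in which genes loss of one motor leaves a different transcriptome from loss of the other. Its members were chosen by label: the 3 libraries of the BRG1 knockout and the 3 of the BRM knockout, which are 6 of the 9 libraries of the series, and no parental library entered the test.

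The line throughout was H358, derived from a human lung carcinoma of the non-small cell type with epithelial, bronchioloalveolar traits, and grown in RPMI with fetal bovine serum. SMARCA4 was knocked out by CRISPR in the BRG1 group and SMARCA2 in the BRM group, while the 3 parental libraries carried neither edit. Total RNA was sequenced, and the deposited values are estimated reads per transcript. Not given in the sources used here are the guide sites and whether each knockout is a clone or a pool. Replicates carry numbers, but whether each was its own culture is not stated, so a p-value reflects the spread among these libraries only, which may be technical. A clone would carry its own differences as well as the knockout, and these cannot be told apart here.

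The targeted genes checked the labels. SMARCA4 (ENSG00000127616.18, hg38 chr19:10960825-11079426, plus strand) stood at 23.6, 20.9 and 23.2 counts per 1e6 reads (CPM) in BRG1 knockout replicates 1, 2 and 3, and at 236, 242 and 246 CPM in BRM knockout replicates 1, 2 and 3. SMARCA2 (ENSG00000080503.23, chr9:1980290-2193624, plus strand) stood at 41.8, 31.6 and 60.3 CPM and 10.2, 11.8 and 9.23 CPM in the same order. Every library thus had its own target low, with a log2 fold change (BRG1 knockout over BRM knockout, ± standard error) of -3.42 ± 0.16 for SMARCA4 and 2.10 ± 0.26 for SMARCA2, at adjusted p = 4.6e-06 and 0.00033. Values in parentheses after a gene are log2 fold changes in that direction unless another quantity is named. CPM here is scaled by library size and edgeR's TMM factors, and every adjusted p in the text comes from edgeR's quasi-likelihood test over all tested genes. Parental libraries held SMARCA4 between 212 and 243 CPM and SMARCA2 between 49.0 and 57.8 CPM.

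Depth was even, with 33720255 to 40679073 estimated reads per library. BRG1 knockout replicate 3 stood apart from its group. The first principal component, with 81.1% of the variance, separated the knockouts, and the second, with 9.05%, set replicate 3 at -68.1 against 24.4 and 51.3 for replicates 1 and 2. The share of reads from cytosolic ribosomal protein genes was 10.2% and 10.8% in BRG1 knockout replicates 1 and 2, 5.86% in replicate 3 and 6.24% to 6.35% in the BRM knockout. Epithelial genes were also lower in replicate 3 than in its group. Results that rest on it are therefore given with and without that library. The epithelial identity markers EPCAM, KRT8, KRT18, KRT19 and CDH1 summed to 4638 to 5391 CPM in the BRM knockout and 5119 to 5311 CPM in the parental line and to 415 to 1159 CPM in the BRG1 knockout. The epithelial label of the line thus held in the parental and BRM knockout libraries, while the BRG1 knockout kept less of these transcripts.

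Of 17476 tested genes, 7242 passed at an adjusted p under 0.05, which is 41.4% of all tested. The BRG1 knockout was higher for 3356 genes (19.2%) and lower for 3886 (22.2%), and the median log2 fold change over all tested genes was 0.002. A test against a 2-fold threshold kept 2888 genes (16.5%), with 1087 higher (6.22%) and 1801 lower (10.3%) in the BRG1 knockout. Large differences were common: 541 of the genes that passed were at least 8-fold higher and 953 at least 8-fold lower. At 32-fold the counts were 218 and 314. Without BRG1 knockout replicate 3, 8532 of 18140 genes passed (47.0%), 4009 higher and 4523 lower. Leaving out BRM knockout replicate 3 gave the fewest calls, 2151 higher and 2923 lower. For 9806 genes (56.1%) the 3 libraries of one knockout lay wholly above or below those of the other.

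**Figure D1:**
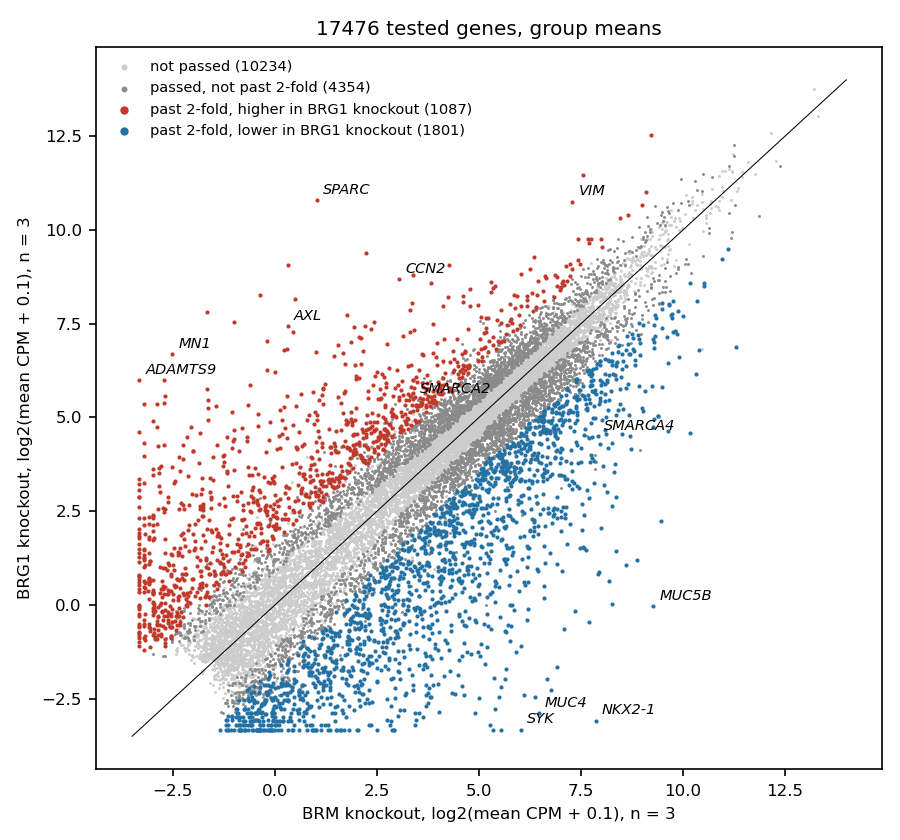
Mean level of each of 17476 tested genes in the BRM knockout (horizontal axis) and the BRG1 knockout (vertical axis), as log2(mean CPM + 0.1) over 3 libraries each; the line marks equal levels. Red points (1087) and blue points (1801) passed the test against a 2-fold threshold; SPARC, MN1 and ADAMTS9 lie far above the line, and SYK, NKX2-1, MUC4 and MUC5B far below it.

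Several genes were expressed in one knockout and almost unread in the other. SYK (ENSG00000165025.14, chr9:90801787-90898549), a tyrosine kinase best known from immune receptor signalling that epithelial cells also express, had no read in any BRG1 knockout library and measured 74.1, 52.6 and 68.9 CPM in the BRM libraries. Counting the BRG1 group at a floor of 3 reads, SYK was at least 2433-fold lower there, and the parental level lay between 27.7 and 37.0 CPM. NKX2-1 (ENSG00000136352.17, chr14:36516392-36521149), the lung lineage transcription factor, had 2 reads in the BRG1 knockout against 26331 in the BRM knockout. That is a ratio of 13090.3 (95% counting interval 3623 to 108097) in favour of the BRM knockout, whose 259, 168 and 271 CPM also lay above the parental 65.2 to 105 CPM. SFTA3, which lies next to NKX2-1 at chr14:36473288-36513829, had 0, 0.0259 and 0.109 CPM against 55.7, 25.2 and 45.2 CPM. KCNQ3, a potassium channel subunit on chromosome 8, had no read in the BRG1 knockout and was at least 1714-fold lower there.

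The other genes of the 10 furthest below the BRM knockout were MUC4, F5, B3GNT6, MCTP2, TENM4 and FGF13. Coagulation factor V, F5, had 1 read in the BRG1 knockout, a ratio of 4404 (95% counting interval 790.0 to 173976), and TENM4 also had 1, a ratio of 1194 (95% counting interval 214 to 47205). B3GNT6, a glycosyltransferase of mucin core synthesis, stood at 0.140, 0.104 and 0 CPM against 85.2, 71.3 and 90.7 CPM. MCTP2 differed by -9.92 ± 0.51 and FGF13 by -9.55 ± 0.46. These 10 genes were picked among those whose libraries did not overlap between the knockouts, so their lack of overlap is no further result.

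In the opposite direction, ADAMTS9 (ENSG00000163638.13, chr3:64515654-64688000), a secreted metalloprotease of proteoglycans, measured 55.3, 29.5 and 105 CPM in the BRG1 libraries and had no read in the BRM knockout, at least 2334-fold higher. MN1, a transcriptional coactivator, stood at 101, 79.7 and 128 CPM against 0, 0.148 and 0.0749 CPM, a log2 fold change of 10.42 ± 0.51 (adjusted p = 5.1e-06). CYTL1, CMKLR1, ZNF423 and TENM2 had no read in the BRM knockout either, and were at least 908-fold, 375-fold, 343-fold and 309-fold higher. These genes were close to silent in the parental line as well: MN1 lay between 0.119 and 0.244 CPM and ADAMTS9 between 0.275 and 0.333 CPM there. FAM171A1 had 1 read in the BRM knockout, a ratio of 4558 (95% counting interval 818 to 180072). The call of TENM2 was lost without a filter on low counts (adjusted p = 0.077). NNMT, nicotinamide N-methyltransferase, also had 1 read in the BRM knockout, a ratio of 2189.5 (95% counting interval 393 to 86519.9).

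**Figure D2:**
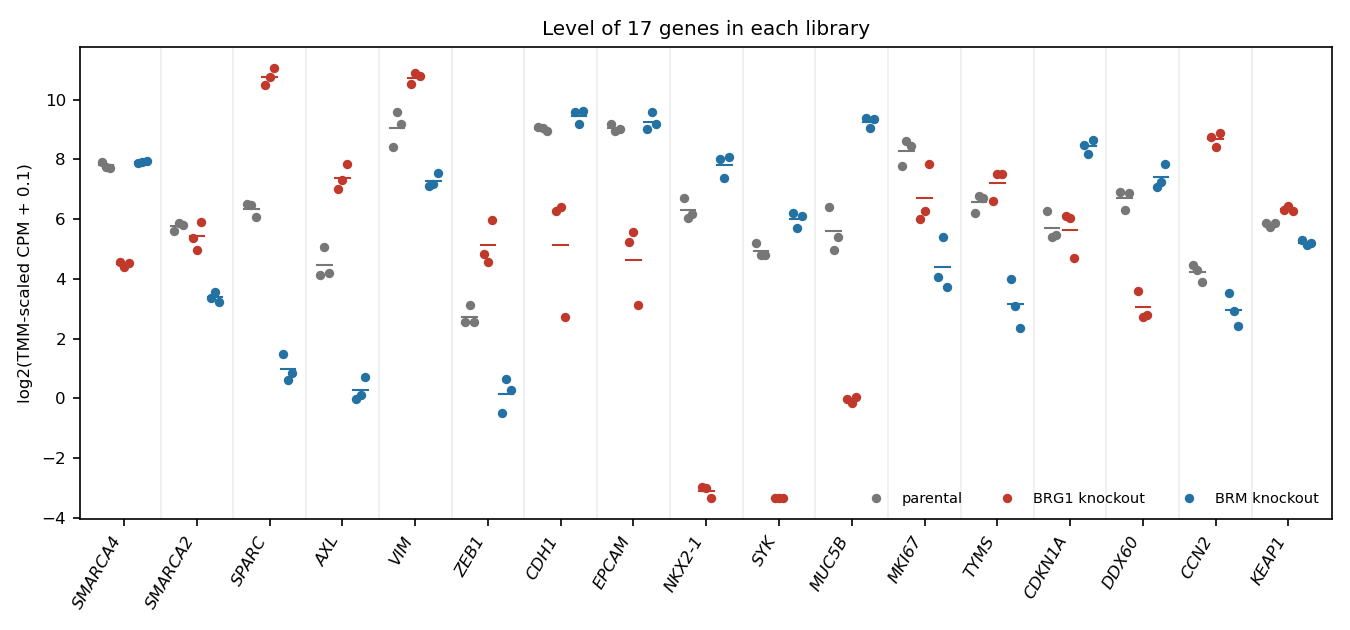
Level of 17 genes in each library as log2(CPM + 0.1), with parental libraries in grey, BRG1 knockout in red and BRM knockout in blue, 3 points per group from replicate 1 to 3 and a bar at their mean on that scale. SYK sits at the bottom of the scale in all 3 BRG1 knockout libraries; the lowest BRG1 knockout points of CDH1 and EPCAM are replicate 3.

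Epithelial genes were lower in the BRG1 knockout almost without exception, and genes of mesenchymal cells were higher. Epithelial sheets are held together by E-cadherin and tight junction proteins under the control of GRHL, OVOL and ESRP factors, and the ZEB and SNAI repressors switch this programme off in epithelial-mesenchymal transition. Of 35 tested members of an epithelial list, 33 were lower in the BRG1 knockout and 0 higher, with a median log2 fold change of -4.11. Over all tested genes 22.2% were lower and the median was 0.002. Without replicate 3 all 35 were lower, with a median of -3.62. The members that missed the threshold with it were KRT19 and OVOL1.

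CDH1 (ENSG00000039068.18, chr16:68737225-68835548), which encodes E-cadherin, measured 77.6, 84.8 and 6.54 CPM in the BRG1 libraries and 765, 577 and 788 CPM in the BRM knockout, a log2 fold change of -3.66 ± 0.82 (adjusted p = 0.01). EPCAM, an epithelial adhesion molecule, stood at 37.6, 47.0 and 8.63 CPM against 524, 766 and 584 CPM (-4.33 ± 0.60, adjusted p = 0.00096). KRT19, a simple-epithelium keratin, stood at 122, 217 and 0.272 CPM against 1497, 1275 and 1468 CPM. All 3 genes had their lowest value in BRG1 knockout replicate 3, and no BRG1 knockout library reached the lowest BRM knockout library. The spread within the BRG1 group left KRT19 at adjusted p = 0.085, which became 3.3e-05 without replicate 3 (log2 fold change -3.03). CDH1 without replicate 3 was at -3.10 and EPCAM at -3.86. The transcription factor GRHL2 stood at 7.14, 7.81 and 0.109 CPM against 129, 119 and 139 CPM (-4.68 ± 1.01, adjusted p = 0.0083), and the splicing regulator ESRP1 at 24.3, 23.1 and 0.136 CPM against 212, 244 and 234 CPM. The calls of CDH1 and GRHL2 held in all 6 fits that left out 1 library, but without a filter on low counts their adjusted p was 0.087 and 0.079. GRHL2 was also at 0.064 with a replicate block. ESRP1's call (adjusted p = 0.035) was lost in 5 of 6 fits that left out 1 library and reached 1.3e-06 without replicate 3. GRHL1 (-6.17 ± 0.49) and CLDN3 (-6.00 ± 0.69) were among the members furthest below, and KRT8 (-1.93 ± 0.29) among the nearest.

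Promoters were searched for short motifs over the 250 bases before RefSeq starts (GRCh38.p14), on both strands. The E-box letters CAGGTG, which ZEB and SNAI factors are known to bind, occurred in 6 of 18 epithelial list members with a promoter in that table (33.3%), in 27.5% of the 1162 such promoters of genes past the 2-fold test and lower, in 15.2% of the 771 of genes past it and higher, and in 17.5% of all 27305 promoters. Promoters of all tested genes held CAGGTG in 16.4%. A match is a description of the letters and not a bound site. CRB3, an apical polarity protein, is shown because its promoter held 5 matches and its level was 0.448, 0.415 and 0 CPM in the BRG1 knockout against 14.6, 12.2 and 11.8 CPM in the BRM knockout (-5.46 ± 0.72, adjusted p = 0.00058). The window is chr19:6464021-6464270 on the plus strand, printed 5′ to 3′, with the E-box letters or their reverse complement in capitals.
CRB3: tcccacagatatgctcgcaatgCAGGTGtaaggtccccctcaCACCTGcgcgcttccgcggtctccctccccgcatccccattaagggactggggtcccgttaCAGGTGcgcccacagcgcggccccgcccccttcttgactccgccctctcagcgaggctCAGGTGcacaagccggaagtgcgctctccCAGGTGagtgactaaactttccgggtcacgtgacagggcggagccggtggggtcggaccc

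Among 8 tested EMT transcription factors, 4 were higher in the BRG1 knockout and 0 lower, with a median of 1.02. Of these factors 50% passed, beside 41.4% of all tested genes. Without BRG1 knockout replicate 3 the counts were 5 and 1 and the median 0.87. The median was 0.35 without BRG1 knockout replicate 2, 0.47 without BRM knockout replicate 1 and 0.56 without BRM knockout replicate 3. ZEB1 stood at 28.1, 23.7 and 63.3 CPM against 0.608, 1.48 and 1.12 CPM (5.16 ± 0.50, adjusted p = 0.00013), and SNAI1 at 149.6, 108 and 68.5 CPM against 3.09, 7.66 and 2.32 CPM (4.65 ± 0.52, adjusted p = 0.00035). ZEB2 (5.07 ± 0.35) and TCF4 (1.44 ± 0.30) were the others. The libraries of ZEB1, SNAI1 and ZEB2 did not overlap between the knockouts, and their parental levels lay in between, at 5.74 to 8.69 CPM for ZEB1. TWIST1 had no read in either knockout and TWIST2 had 2 in the BRM knockout.

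Of 23 tested mesenchymal genes, 16 were higher in the BRG1 knockout and 3 lower, with a median of 3.30 and 3.27 without replicate 3. SPARC (ENSG00000113140.10, chr5:151661096-151687165), a secreted matrix-binding glycoprotein, stood at 1439, 1741 and 2115 CPM against 2.69, 1.42 and 1.70 CPM, a log2 fold change of 9.83 ± 0.37 (adjusted p = 2.3e-06). The receptor kinase AXL stood at 128, 160.3 and 229 CPM against 0.898, 0.979 and 1.55 CPM (7.23 ± 0.35, adjusted p = 5e-06). Vimentin, VIM, the intermediate filament of mesenchymal cells, stood at 1484, 1924 and 1759 CPM against 139, 144 and 185 CPM (3.46 ± 0.21, adjusted p = 1.2e-05). MYL9, a myosin light chain, was higher as well (4.57 ± 0.44). For SPARC, AXL and VIM the lowest BRG1 knockout library was above the highest BRM knockout library and above the parental libraries. N-cadherin, CDH2 (3.94 ± 0.24), and MMP2 (7.95 ± 0.61) were also higher. Fibronectin, FN1, did not pass, at 842, 1063 and 2018 CPM against 1444, 458 and 613 CPM, and its groups overlapped. CD44 (-1.61 ± 0.20), NT5E (-2.11 ± 0.20) and ACTA2 (-1.81) were the 3 lower members.

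Several fibroblast markers, but not all, moved with these genes. Of 8 tested markers 5 were higher in the BRG1 knockout and 1 lower, and the 10 markers summed to 391 to 1018 CPM there and 81.9 to 125 CPM in the BRM knockout. COL1A1 and COL3A1 made up most of those sums. The receptor PDGFRB and the surface protein THY1 were higher with them, THY1 at 3.08, 2.07 and 3.10 CPM against 0.211, 0.0594 and 0.200 CPM, and PDGFRA stood at 3.28, 2.80 and 6.67 CPM against 0.159, 0.0890 and 0.150 CPM. COL1A2 was the lower one. LUM overlapped between the knockouts, at 18.5, 15.7 and 3.30 CPM against 11.4, 5.96 and 7.36 CPM. DCN, FAP and POSTN reached at most 0.519, 0.399 and 0.681 CPM in any knockout library, with DCN at 0.308, 0.519 and 0.0545 CPM in the BRG1 libraries against 0, 0.0297 and 0 CPM. Blood markers summed to 9.83 to 13.3 CPM in the BRG1 knockout and 18.1 to 57.6 CPM in the BRM knockout, nearly all of it CD68, and CD3E and ITGAM had at most 2 reads over a group. Endothelial markers summed to 4.69 to 4.99 and 47.6 to 74.5 CPM, nearly all of the latter KDR. The part of other cells in these results was not tested. In such bulk libraries, fewer cells with a transcript and less transcript per cell cannot be told apart.

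Collagen chain genes, which encode the fibres and networks of the matrix, followed the mesenchymal genes, with 22 of 33 higher, 5 lower and a median of 1.91. COL3A1, a fibrillar chain, stood at 83.2, 108 and 727 CPM against 0.951, 0.712 and 0.374 CPM (8.82 ± 1.14, adjusted p = 0.0008), and replicate 3 was the highest of the 6 libraries. Without replicate 3 its log2 fold change was 7.16. COL8A2 stood at 35.9, 61.0 and 92.8 CPM against 0.0528, 0 and 0.0998 CPM (10.12 ± 0.62, adjusted p = 1.5e-05), and COL1A1 at 245, 279 and 205 CPM against 111, 72.4 and 87.9 CPM (1.43 ± 0.21, adjusted p = 0.00081). COL4A3, COL8A1, COL1A2, COL9A3 and COL4A4 were the 5 lower chains, a count of 2 without BRM knockout replicate 3 and 3 without BRG1 knockout replicate 2. Claudins, the sealing proteins of tight junctions, had 8 of 12 lower, CLDN4 (-4.52 ± 1.08) and CLDN7 (-4.54 ± 0.67) among them, and 2 higher, CLDN2 and CLDN11 (4.24 ± 0.39). CLDN4 missed the threshold without BRM knockout replicate 3 (adjusted p = 0.0503), with a replicate block (0.068) and without a filter on low counts (0.1).

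Other matrix genes differed in both directions. Of 33 other matrix genes, 12 were higher in the BRG1 knockout and 8 lower, so 60.6% passed, beside 41.4% of all tested genes. The lower ones included the laminin chains LAMA3, LAMA5 and LAMB3 of the basement membrane. The lower count was 5 without BRG1 knockout replicate 1 or BRM knockout replicate 1 or 3. LAMA5 stood at 144, 84.3 and 127 CPM against 2254, 2747 and 2593 CPM (-4.42 ± 0.26, adjusted p = 1e-05), with no overlap, and the parental line lay between the knockouts. FBLN1, a fibulin of elastic fibres, stood at 424, 406 and 505 CPM against 7.0, 12.7 and 11.5 CPM (5.42 ± 0.28, adjusted p = 5.8e-06), and LOXL1, a collagen cross-linking oxidase, was higher (4.05 ± 0.31). Of 19 metalloproteases and inhibitors, 9 were higher and 6 lower, so 78.9% passed. The membrane-bound MMP14 stood at 93.0, 113 and 162 CPM against 2.01, 3.65 and 2.77 CPM (5.45 ± 0.32, adjusted p = 1e-05), whereas its relative MMP15 stood at 6.95, 8.87 and 7.11 CPM against 89.5, 109 and 84.3 CPM (-3.62 ± 0.19, adjusted p = 7e-06). Integrins had 7 higher and 5 lower of 19, so 63.2% passed. ITGA5, the fibronectin receptor chain (3.58 ± 0.33), and ITGA10, a collagen receptor chain (6.22 ± 0.38), were higher. ITGA2, ITGA3, ITGA6, ITGB4 and ITGB6 were the lower ones, and the call of ITGB6 was lost in 5 of 6 fits that left out 1 library.

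**Figure D3:**
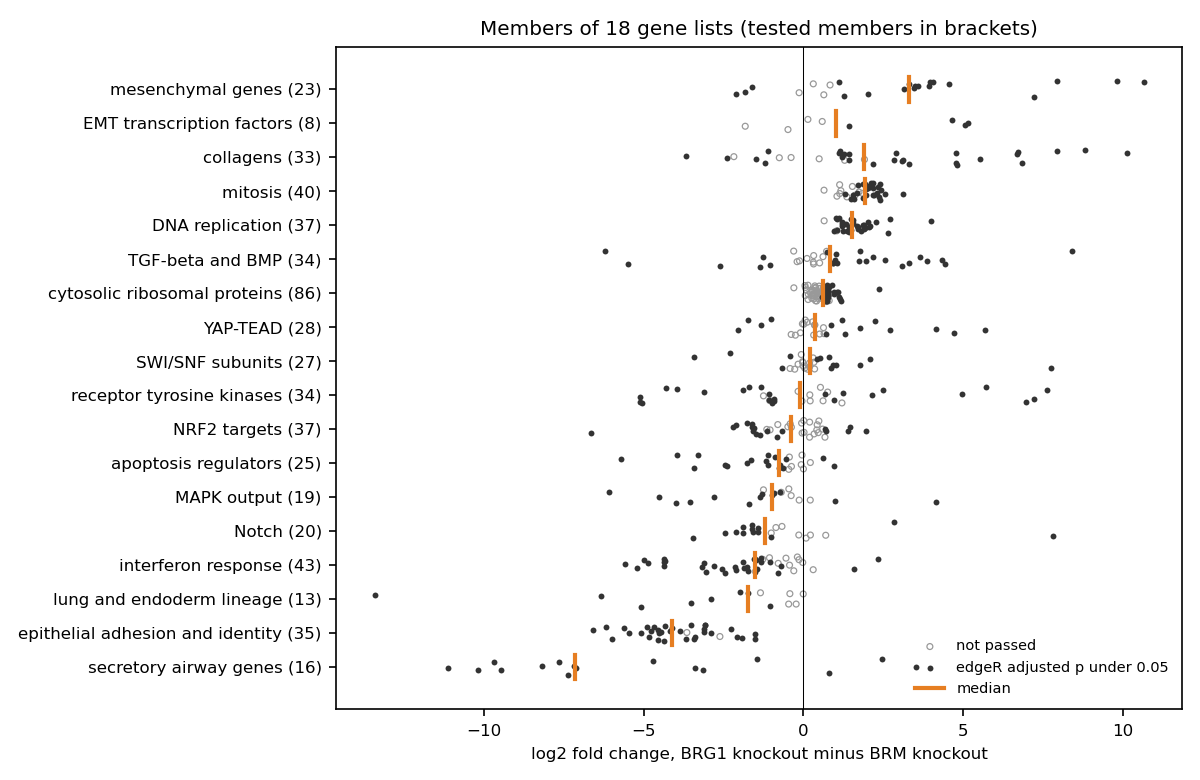
Log2 fold change, BRG1 knockout minus BRM knockout, of each tested member of 18 gene lists; filled points passed at an edgeR adjusted p under 0.05, open points did not, and orange bars are list medians. Secretory airway and epithelial genes lie far to the left, DNA replication and mitosis members all lie to the right of 0, and receptor kinases spread to both sides.

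Secretory genes of the airway showed the lowest median of the 44 lists examined. Goblet and club cells make the gel mucins and the folding factors for them, and lung adenocarcinomas often keep part of this output. Of 16 tested members (25 on the list), 13 were lower in the BRG1 knockout and 3 higher, with a median of -7.14, or -6.88 with members unread in one group at their bound. MUC5B, a gel-forming airway mucin, measured 0.896, 0.804 and 0.926 CPM in the BRG1 libraries and 664, 531 and 659.8 CPM in the BRM knockout (-9.46 ± 0.24, adjusted p = 8.2e-07). MUC4, a membrane mucin, stood at 0.0560, 0.0519 and 0 CPM against 55.7, 126 and 82.2 CPM (-11.12 ± 0.56, adjusted p = 5.8e-06). AGR2, a disulfide isomerase needed for mucin folding, stood at 3.19, 1.79 and 0 CPM against 221, 255 and 245 CPM (-7.18 ± 1.04, adjusted p = 0.0013). For MUC5B, MUC4 and AGR2 the parental libraries lay between the knockouts, at 31.5 to 85.4 CPM for MUC5B, 1.17 to 4.30 CPM for MUC4 and 59.5 to 99.4 CPM for AGR2. MUC5AC had no read in the BRG1 knockout and was at least 100.4-fold lower, and MUC16, a membrane mucin, differed by -7.66 ± 0.54. Relative to the parental mean, the list's median was -1.97, -2.50 and -3.20 in BRG1 knockout replicates 1 to 3 and 2.10, 2.09 and 2.27 in the BRM knockout, so the knockouts lay on opposite sides of it. CREB3L1 (3.52 ± 0.47), FCGBP (0.79 ± 0.28) and SLPI (2.48 ± 0.86) were the 3 higher members. The higher count was 1 in 5 of 6 fits that left out 1 library and with a replicate block, so SLPI was not the only call lost there. SLPI's adjusted p was 0.049, its call was lost in the same 5 fits, and replicate 3 alone gave a log2 fold change of -0.90 (adjusted p = 0.42).

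Lung lineage genes were lower too. Of 13 tested members (26 on the list), 8 were lower in the BRG1 knockout and 0 higher, with a median of -1.75, or -1.30 without replicate 3. After NKX2-1, the largest difference with counts in both groups was in HOPX, an alveolar homeodomain protein, at 0.756, 0.207 and 0 CPM against 23.6, 31.6 and 22.6 CPM (-6.33 ± 0.80, adjusted p = 0.00062). The pioneer factor FOXA1 stood at 1.85, 0.830 and 2.12 CPM against 63.2, 45.5 and 54.5 CPM (-5.09 ± 0.35, adjusted p = 1.9e-05), and FOXA2 at 11.4, 13.1 and 8.31 CPM against 75.1, 74.2 and 95.3 CPM (-2.90 ± 0.22, adjusted p = 3e-05). For both FOXA genes replicate 3 did not stand apart from replicates 1 and 2 as it did for CDH1 and KRT19. Surfactant proteins SFTPA1, SFTPA2, SFTPB, SFTPC and SFTPD had at most 10 reads over a group and were not tested. Among 10 squamous and basal genes, TP63, KRT15, S100A2, SERPINB5 and NGFR were lower and KRT5 and KRT17 higher. Without BRG1 knockout replicate 3 the counts were 5 lower and 4 higher. Against the parental mean the list's median was 1.20, 0.68 and -1.90 in BRG1 knockout replicates 1 to 3, so replicate 3 lay on the other side. In the BRM knockout it was 0.82, 1.16 and 1.63. KRT17 missed the threshold with a replicate block (adjusted p = 0.1). TP63, the basal cell factor, stood at 1.93, 0.596 and 2.64 CPM against 254, 174 and 313 CPM (-7.16 ± 0.56, adjusted p = 4.9e-05). The basal keratin KRT5, in contrast, had no read in the BRM knockout and measured 2.38, 7.44 and 0.572 CPM in the BRG1 libraries, at least 132-fold higher, and its call was lost without a filter on low counts (adjusted p = 0.11).

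Genes of DNA replication were higher in the BRG1 knockout than in the BRM knockout, although the list's median lay below the parental mean in all 6 libraries. Their products licence origins, copy the strands and supply nucleotides, and many are E2F targets that rise as cells enter S phase. Of 37 tested members, 35 were higher and 0 lower, with a median of 1.54, and 33 were higher without BRG1 knockout replicate 3. The higher count was 25 without BRG1 knockout replicate 2, 26 without BRM knockout replicate 2 or 3 and 29 with a replicate block. The median stayed at 1.30 or above when any 1 library was left out. TYMS, thymidylate synthase, measured 97.6, 185 and 181 CPM in the BRG1 libraries and 15.8, 8.43 and 5.02 CPM in the BRM knockout (3.98 ± 0.46, adjusted p = 0.00034). PCNA, the sliding clamp, stood at 106, 184 and 134 CPM against 74.0, 38.5 and 33.4 CPM (1.54 ± 0.33, adjusted p = 0.0064), and MCM2, of the replicative helicase, at 101, 151 and 169 CPM against 103, 41.3 and 38.5 CPM (1.20 ± 0.40, adjusted p = 0.04). MCM2 overlapped between the groups through BRM knockout replicate 1, and its call was lost in 4 of 6 fits that left out 1 library. TYMS and PCNA did not overlap. Against the parental mean the list's median was -1.28, -0.66 and -0.62 in the BRG1 knockout and -2.08, -2.43 and -3.06 in the BRM knockout. MCM10 (2.71 ± 0.47), CDC45 (2.66 ± 0.63) and GINS2 (2.27 ± 0.58), which fire origins, were among the highest members, though CDC45 and GINS2 lost their calls without a filter on low counts. The call of GINS2 was also lost without BRG1 knockout replicate 2 (adjusted p = 0.062), without BRM knockout replicate 3 (0.055) and with a replicate block (0.061). MCM7 (0.65) and RRM2 (1.05) were the members that did not pass.

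Of 40 mitosis genes, 30 were higher and 0 lower, with a median of 1.94, but this count depended on single libraries. It was 18 without BRG1 knockout replicate 3, 11 without BRG1 knockout replicate 2, 9 without BRM knockout replicate 1 and 7 without BRM knockout replicate 3. The count was 28 without BRG1 knockout replicate 1 and rose to 39, with a median of 2.84, without BRM knockout replicate 2. The median stayed at 1.62 or above in each of these fits. MKI67, the proliferation antigen, stood at 64.4, 78.0 and 232 CPM against 16.5, 42.3 and 13.1 CPM (2.38 ± 0.63, adjusted p = 0.019). KIF23, a kinesin of cytokinesis, stood at 47.7, 59.1 and 102 CPM against 9.01, 23.3 and 6.89 CPM (2.41 ± 0.50, adjusted p = 0.0064). CCNB1, cyclin B1, stood at 82.9, 115 and 134 CPM against 15.3, 55.4 and 16.4 CPM (1.93 ± 0.51, adjusted p = 0.018). The call of MKI67 was lost without BRM knockout replicate 1 or 3, and that of CCNB1 without BRG1 knockout replicate 2 or BRM knockout replicate 3. In MKI67, KIF23 and CCNB1 the highest BRM knockout library was replicate 2, which still lay below every BRG1 knockout library. Without a filter on low counts these 3 calls were lost, KIF23 at adjusted p = 0.057. MYBL2 (3.12 ± 0.50), a transcription factor of this phase, had the largest difference. TOP2A did not pass (1.14 ± 0.56), and there BRM knockout replicate 2, at 231 CPM, lay above BRG1 knockout replicates 1 and 2.

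Among 24 regulators of the G1 phase, 10 were higher in the BRG1 knockout and 4 lower. Of these regulators 58.3% passed, beside 41.4% of all tested genes. CDKN1A, the p21 inhibitor of cyclin-dependent kinases, stood at 69.0, 65.9 and 26.1 CPM against 357, 289.9 and 402 CPM (-2.70 ± 0.36, adjusted p = 0.00054). Parental libraries held CDKN1A between 42.2 and 76.8 CPM. Cyclin D1, CCND1, was lower (-1.40 ± 0.25), and CDKN2D and CDKN1C were the other lower members. E2F1 (2.48 ± 0.56), CCNE1 (2.27 ± 0.48) and CDKN2A (1.52 ± 0.25) were higher, E2F1 at adjusted p = 0.081 without a filter on low counts. The count of higher regulators fell to 5 without BRM knockout replicate 3. Of 36 tested replication-dependent histone genes, 14 were higher and 2, H2BC26 and H2BC1, lower, a share of 44.4% beside 41.4% of all tested genes.

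The E2F letters TTTNNCGC occurred in 14 of 33 DNA replication promoters (42.4%) and in 5.93% of all 27305 promoters. Among genes past the 2-fold test they occurred in 5.97% of promoters of higher genes and 6.37% of those of lower genes. Promoters of all tested genes held them in 8.62%. The letters TTTGAA of the cell cycle homology region, through which G2 and M phase genes are known to be regulated, occurred in 18 of 33 mitosis promoters (54.5%) and in 13.6% of all. Past the 2-fold test, 10.4% of promoters of higher genes and 9.38% of those of lower genes held TTTGAA. Promoters of all tested genes held TTTGAA in 8.75%. TYMS and KIF23 are shown as members with a single match each, 39 and 55 bases before the start. Their windows are chr18:657403-657652 and chr15:69414099-69414348 (GRCh38.p14, plus strand), with the match or its reverse complement in capitals.
TYMS: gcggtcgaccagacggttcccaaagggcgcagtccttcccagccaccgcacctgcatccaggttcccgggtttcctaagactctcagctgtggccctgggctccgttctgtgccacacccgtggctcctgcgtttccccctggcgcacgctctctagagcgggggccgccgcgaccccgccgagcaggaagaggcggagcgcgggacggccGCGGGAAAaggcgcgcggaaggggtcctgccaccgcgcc
KIF23: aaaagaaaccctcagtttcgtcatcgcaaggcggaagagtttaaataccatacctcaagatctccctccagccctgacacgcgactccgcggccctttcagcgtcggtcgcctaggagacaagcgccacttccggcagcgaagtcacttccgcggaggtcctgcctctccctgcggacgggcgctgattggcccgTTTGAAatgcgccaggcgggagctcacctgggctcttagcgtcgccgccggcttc

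Interferon-stimulated genes were lower in the BRG1 knockout. Type I interferon acts through STAT and IRF factors on the ISRE element of antiviral genes, and many carcinoma lines keep a basal level of this output. Of 43 tested members, 31 were lower and 2 higher, with a median of -1.52 and -1.49 without replicate 3. DDX60, an antiviral helicase, measured 12.1, 6.51 and 6.89 CPM in the BRG1 libraries and 136, 153 and 232 CPM in the BRM knockout (-4.35 ± 0.33, adjusted p = 3e-05). OAS1, which makes the activator of RNase L, stood at 2.46, 1.53 and 0.327 CPM against 92.7, 39.9 and 74.4 CPM (-5.58 ± 0.66, adjusted p = 0.00047), and ISG15, a ubiquitin-like modifier, at 34.6, 46.9 and 32.4 CPM against 205, 114 and 181 CPM (-2.14 ± 0.26, adjusted p = 0.00029). None of these 3 genes overlapped between the knockouts. The antiviral GTPases MX1 (-5.00 ± 0.61) and MX2 (-5.21 ± 0.59) were lower as well. IFITM2 (2.34 ± 0.25) and IFITM3 (1.57 ± 0.25), membrane proteins that block viral entry, were the 2 higher members, at 449, 442 and 268 CPM against 135, 103 and 151 CPM for IFITM3. The list's median against the parental mean was -0.90, -1.42 and -1.51 in the BRG1 knockout and 0.58, 0.02 and 0.65 in the BRM knockout.

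The ISRE letters, TTTC followed after any 2 bases by TTTC, occurred in 19 of 35 interferon list promoters (54.3%) against 3.07% of all 27305. Among genes past the 2-fold test they occurred in 2.85% of promoters of higher genes and 2.93% of those of lower genes. Promoters of all tested genes held the ISRE letters in 2.37%. The promoters of OAS1 and MX1, which lay further below than DDX60, held 0 matches. DDX60 is shown as a member that was lower and whose promoter held matches, so it does not stand for all lower members. The window is chr4:168318753-168319002 (GRCh38.p14, minus strand), with 2 matches in capitals, 88 and 53 bases before the start, both in reverse complement.
DDX60: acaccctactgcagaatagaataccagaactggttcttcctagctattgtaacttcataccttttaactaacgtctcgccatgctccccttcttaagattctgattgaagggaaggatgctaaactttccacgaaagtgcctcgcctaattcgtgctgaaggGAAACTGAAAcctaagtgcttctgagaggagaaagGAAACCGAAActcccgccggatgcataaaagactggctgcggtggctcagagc

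Of 10 tested genes of MHC class II presentation, 5 were higher in the BRG1 knockout and 1 lower. That is 60%, beside 41.4% of all tested genes. Without replicate 3 the counts were 8 and 2 of 11. CD74, the invariant chain, stood at 25.3, 14.9 and 5.99 CPM against 0.211, 0.0297 and 0.499 CPM (5.90 ± 0.81, adjusted p = 0.00086). HLA-DPA1 had no read in the BRM knockout and was at least 49.95-fold higher. HLA-DPB1, HLA-DMA and HLA-DMB completed the 5, and CTSS, a lysosomal protease of this pathway, was lower at 0.980, 0.519 and 0.218 CPM against 35.6, 35.5 and 40.0 CPM. The levels of CD74 and HLA-DPA1 in the BRG1 knockout were lowest in replicate 3. HLA genes share near-identical stretches, so their estimated reads are uncertain. MHC class I genes were mixed, with B2M, CALR and TAPBP higher and HLA-C, HLA-F, TAP1, ERAP1 and PSMB8 lower of 16. Their share that passed was 50%, beside 41.4% of all tested genes. The lower count was 2 without BRG1 knockout replicate 2 or BRM knockout replicate 2 or 3, and 3 without BRM knockout replicate 1.

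Growth factor receptors differed in both directions. Of 34 receptor tyrosine kinase genes, 10 were higher in the BRG1 knockout and 14 lower, with a median of -0.10. The share that passed was 70.6%, beside 41.4% of all tested genes. With a GC and length trend removed the counts were 15 and 13 and the median turned to 0.30. PDGFRB, a receptor of mesenchymal cells, stood at 36.7, 24.4 and 71.6 CPM against 0.211, 0.148 and 0.299 CPM (7.61 ± 0.53, adjusted p = 2.3e-05), and FGFR1 at 109, 204 and 153 CPM against 1.45, 1.54 and 0.749 CPM (6.97 ± 0.38, adjusted p = 7.5e-06). KIT was also higher, at 27.3, 3.63 and 30.7 CPM against 0.423, 0.445 and 0.299 CPM, and was uneven within the BRG1 group. On the other side ERBB3, an epithelial receptor of neuregulins, stood at 6.44, 4.95 and 0.136 CPM against 115, 135 and 135 CPM (-5.06 ± 0.95, adjusted p = 0.0045). Without a filter on low counts ERBB3 was at adjusted p = 0.054. ERBB2 (-1.89 ± 0.22) and MET (-1.71 ± 0.19) were lower, with ERBB2 at 105, 101 and 61.5 CPM against 311, 350.1 and 331 CPM.

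Genes that ERK signalling is known to induce had 11 of 19 members lower, 2 higher and a median of -0.98. DUSP6, the ERK phosphatase, stood at 21.2, 15.9 and 16.9 CPM against 289.6, 197 and 366 CPM (-3.98 ± 0.27, adjusted p = 1.8e-05). The EGFR ligand AREG stood at 3.72, 4.31 and 0.327 CPM against 169, 226 and 177 CPM (-6.09 ± 0.79, adjusted p = 0.00081), and EREG differed by -4.52 ± 0.63. HBEGF, another EGFR ligand, went the other way, at 58.4, 71.1 and 78.3 CPM against 2.75, 5.82 and 3.12 CPM (4.16 ± 0.31, adjusted p = 2.9e-05). SPRY2 (1.00) was the other higher member. AP-1 and immediate early genes had 4 of 14 lower, ATF3, JUNB and EGR3 among them, and 1 higher, FOSL2 (0.96 ± 0.31), a share of 35.7% beside 41.4% of all tested genes. The call of FOSL2 was lost in 3 of 6 fits that left out 1 library, and that of ATF3 in 4 of 6, with limma voom and with a replicate block (adjusted p = 0.062 in both). Without BRG1 knockout replicate 2 the lower count was 2.

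YAP and TAZ are coactivators that TEAD factors carry to growth and matrix genes. Of 28 genes of this pathway, 10 were higher in the BRG1 knockout and 4 lower, with a median of 0.36. The share that passed was 50%, beside 41.4% of all tested genes. CCN2, a secreted matricellular protein and direct target, stood at 429.7, 341 and 472 CPM against 11.5, 7.48 and 5.29 CPM (5.67 ± 0.34, adjusted p = 1.1e-05). IGFBP3 stood at 265, 297 and 229 CPM against 12.5, 11 and 6.74 CPM (4.71 ± 0.27, adjusted p = 1e-05), and ANKRD1 at 3.16, 2.46 and 5.01 CPM against 0.211, 0.178 and 0.200 CPM (4.15 ± 0.43, adjusted p = 0.00013). The groups of all 3 were apart, and BRG1 knockout replicate 3 was the highest library for CCN2 and ANKRD1 but not for IGFBP3. CCN1 (2.71 ± 0.24) and CRIM1 (2.26 ± 0.38) were higher as well. AMOTL1, GADD45A, DOCK5 and TEAD3 were the 4 lower members, and without BRG1 knockout replicate 3 the lower count was 7. YAP1 (-0.25), WWTR1 (0.12) and TEAD1 (0.01), the coactivators and a partner, did not pass. The TEAD letters GGAATG occurred in 6 of 21 promoters of the list (28.6%) and in 11.9% of all 27305. Among genes past the 2-fold test they occurred in 11.2% of promoters of higher genes and 9.98% of those of lower genes. Promoters of all tested genes held GGAATG in 9.53%. CCN2 is shown because its window, chr6:131951373-131951622 (GRCh38.p14, minus strand), held 3 matches, in capitals, 169, 104 and 95 bases before the start.
CCN2: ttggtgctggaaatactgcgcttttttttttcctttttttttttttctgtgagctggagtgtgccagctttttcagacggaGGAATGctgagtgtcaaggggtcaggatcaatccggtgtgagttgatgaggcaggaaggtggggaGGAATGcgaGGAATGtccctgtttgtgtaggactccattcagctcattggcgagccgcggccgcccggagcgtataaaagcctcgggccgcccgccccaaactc

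Of 34 genes of the TGF-beta and BMP pathways, 18 were higher in the BRG1 knockout and 6 lower, with a median of 0.83. Among ligands, TGFB3 stood at 73.0, 90.5 and 91.9 CPM against 4.46, 3.62 and 4.49 CPM (4.34 ± 0.20, adjusted p = 4.4e-06), TGFB2 differed by 3.64 ± 0.28 and BMP4 by 3.88 ± 0.19. INHBB, an activin subunit, stood at 4.84, 2.93 and 0.191 CPM against 193, 217 and 184 CPM (-6.22 ± 0.88, adjusted p = 0.0012), and the stress ligand GDF15 at 9.41, 9.78 and 2.75 CPM against 226, 522 and 234 CPM (-5.48 ± 0.60, adjusted p = 0.00033). The pathway thus held ligands on both sides. Among antagonists, NOG, noggin, stood at 17.6, 19.5 and 20.8 CPM against 0.0264, 0.0297 and 0.0998 CPM (8.41 ± 0.40, adjusted p = 4.6e-06). Among receptors TGFBR1 was higher (1.75) and BMPR1B lower (-2.61), and among transducers SMAD3 was lower (-1.26 ± 0.22). The BMP targets ID1 (0.99), ID2 (2.54) and ID3 (3.09) were higher.

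Notch pathway genes had 11 of 20 lower in the BRG1 knockout and 2 higher, with a median of -1.21. The receptor NOTCH3 stood at 48.2, 34.4 and 88.3 CPM against 207, 199 and 222 CPM (-1.88 ± 0.32, adjusted p = 0.0019), and the target HES1 at 19.6, 20.1 and 17.5 CPM against 71.8, 77.2 and 61.4 CPM (-1.88 ± 0.16, adjusted p = 5.7e-05). The ligands JAG1 (-1.60), JAG2 (-1.42) and DLL4 (-3.44) and the targets HEY1 (-2.45 ± 0.27) and HEYL (-2.10 ± 0.33) were lower, so receptors, ligands and targets were all among the lower members. HEY2 and NOTCH4 were the 2 higher ones. The higher count was 1 without BRG1 knockout replicate 1 or 2 or BRM knockout replicate 2 or 3, and 3 without BRG1 knockout replicate 3. HEY2 had no read in the BRM knockout and was at least 27.8-fold higher from a level of 0.672, 0.493 and 1.09 CPM. Wnt genes were split, with 10 higher and 9 lower of 28, so 67.9% passed, beside 41.4% of all tested genes. The ligand WNT7B was lower (-4.82 ± 0.65) and the ligand WNT11 higher (4.34 ± 0.57). NOTUM, a secreted Wnt inhibitor, stood at 26.8, 19.8 and 31.4 CPM against 1.32, 1.16 and 0.798 CPM (4.57 ± 0.29, adjusted p = 1.5e-05), and the repressor TCF7L1 was higher (3.28 ± 0.42). The feedback target AXIN2 was higher (2.71 ± 0.27), as was LEF1, which had no read in the BRM knockout and was at least 179.7-fold higher.

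Of 25 apoptosis regulators, 16 were lower in the BRG1 knockout and 2 higher, with a median of -0.77, and both death-promoting and protective members were among the lower ones. The protective BCL2L1 stood at 64.0, 79.4 and 60.2 CPM against 386, 313 and 370.1 CPM (-2.39 ± 0.18, adjusted p = 3e-05). Of the promoting members, the death receptor FAS stood at 0.644, 0.830 and 0.790 CPM against 8.88, 6.38 and 6.99 CPM (-3.29 ± 0.29, adjusted p = 6.2e-05), the TRAIL receptor TNFRSF10A by -3.41 ± 0.19 on the log2 scale, and BIK by -5.72 ± 0.74. BAX (0.96 ± 0.24) and BMF (0.61) were the 2 higher members. The call of BAX was lost without BRM knockout replicate 1 (adjusted p = 0.053).

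The count of cytosolic ribosomal protein genes rested on which BRG1 knockout libraries were used. Of 86 tested members, 29 were higher and 0 lower with all libraries, and 77 were higher without replicate 3, the median going from 0.63 to 0.89. With all libraries 33.7% passed, below the 41.4% of all tested genes. Replicate 3 alone against the BRM knockout gave 4 higher, 9 lower and a median of -0.05. RPL21 stood at 901, 1009.6 and 607 CPM against 339, 387 and 384 CPM, lowest among the BRG1 knockout libraries in replicate 3 but there still above every BRM knockout library. Leaving out either of the other BRG1 knockout libraries, or any BRM knockout library, took the count to between 6 and 8. RPS27L, a p53-inducible paralogue, was high in all 3 BRG1 knockout libraries, at 93.0, 104 and 74.9 CPM against 19.1, 13.4 and 19.7 CPM (2.38 ± 0.21, adjusted p = 6.6e-05). Ribosomal protein genes have many near-identical pseudogenes, which makes their estimated reads uncertain. Of 77 nuclear genes of oxidative phosphorylation, 14 were higher and 1, UQCRC1, lower, so 19.5% passed, below the 41.4% of all tested genes. The higher count was 34 without BRG1 knockout replicate 3, 9 without BRM knockout replicate 1 or 2 and 7 without BRM knockout replicate 3. With a GC and length trend removed the lower count was 6, and BRG1 knockout replicate 3 alone gave 5 higher and 8 lower.

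Metabolic lists held members on both sides. Of 31 glycolysis and hypoxia genes, 10 were higher in the BRG1 knockout and 9 lower, and the lower count was 4 without BRG1 knockout replicate 1 and 3 without BRM knockout replicate 1 or 3. The glucose transporter SLC2A3 stood at 43.2, 24.3 and 23.3 CPM against 3.65, 3.29 and 4.52 CPM (2.98 ± 0.29, adjusted p = 0.00011), whereas SLC2A1, the ubiquitous transporter, was lower (-0.91 ± 0.18). Hexokinase 2, HK2, was lower (-1.77 ± 0.20) and lactate dehydrogenase A, LDHA, higher (1.15 ± 0.24). The angiogenic factor VEGFA stood at 259, 185 and 197 CPM against 759.9, 952 and 801 CPM (-1.97 ± 0.20, adjusted p = 0.00013), and ADM, adrenomedullin, was higher (2.06 ± 0.25). Of 27 genes of cholesterol and fatty acid synthesis, 6 were lower and 1, the desaturase FADS2, higher, so 25.9% passed, below the 41.4% of all tested genes. Without BRM knockout replicate 2 the higher count was 4 and the list's median turned from -0.31 to 0.07. The regulator SREBF1 stood at 345, 221 and 222 CPM against 749.6, 661 and 648 CPM (-1.38 ± 0.22, adjusted p = 0.0012). Fatty acid synthase, FASN, was lower too (-1.39 ± 0.26). Among 18 detoxification enzymes outside the NRF2 list, 8 were lower and 5 higher, AHRR, CYP1B1, GSTM2, ALDH3B1 and ALDH2. The higher count was 3 without BRG1 knockout replicate 1 or 2 or BRM knockout replicate 3. AHRR, the repressor of the aryl hydrocarbon receptor, stood at 90.8, 47.3 and 65.5 CPM against 6.60, 6.83 and 5.36 CPM (3.44 ± 0.27, adjusted p = 3.2e-05). ALDH1A3, which makes retinoic acid, stood at 19.5, 11.5 and 0.980 CPM against 128, 139 and 139 CPM (-3.67 ± 0.85, adjusted p = 0.011), with replicate 3 the lowest library, and missed the threshold with a replicate block (0.058) or without a filter on low counts (0.092).

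The series concerns NRF2, the transcription factor encoded by NFE2L2 that induces antioxidant and detoxifying enzymes and that KEAP1 holds at a low level by targeting it for degradation. NFE2L2 itself measured 121, 107 and 127 CPM in the BRG1 libraries and 109, 103 and 108 CPM in the BRM knockout (0.15 ± 0.15, adjusted p = 0.45). KEAP1 stood at 79.7, 87.6 and 77.2 CPM against 39.0, 35.0 and 37.0 CPM, a log2 fold change of 1.14 ± 0.15 (adjusted p = 0.00043), with parental libraries between 53.8 and 59.0 CPM. The KEAP1 groups did not overlap and lay on opposite sides of the parental line, while the NFE2L2 groups overlapped. NFE2L3, a related factor, was higher (3.18 ± 0.25), and MAFF, a small MAF partner, lower (-2.09 ± 0.24). DPP3 (-0.57 ± 0.16) was the other lower one of 15 regulators, and its call was lost in 3 of 6 fits that left out 1 library. Of the regulators 26.7% passed, below the 41.4% of all tested genes.

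Of 37 NRF2 target genes, 5 were higher in the BRG1 knockout and 13 lower, with a median of -0.37 (-0.16 without replicate 3). The share that passed was 48.6%, beside 41.4% of all tested genes. GSR, glutathione reductase, stood at 72.0, 59.1 and 44.0 CPM against 232 to 276 CPM (-2.11 ± 0.21, adjusted p = 0.00011), and UGDH, which supplies glucuronic acid, at 65.6, 66.9 and 77.0 CPM against 243, 416 and 309 CPM (-2.21 ± 0.22, adjusted p = 0.00013). For UGDH, parental libraries lay between 102 and 152 CPM, with one knockout on each side. Glutathione synthesis genes GCLM (-1.59 ± 0.24) and GCLC (-1.55 ± 0.30), the membrane transferase MGST1 (-1.76 ± 0.26) and the peroxidase GPX2 (-6.63 ± 0.45) were lower as well. The cystine transporter SLC7A11 passed narrowly at 27.2, 15.4 and 53.4 CPM against 61.1, 143 and 64.6 CPM (adjusted p = 0.046). Its call was lost in 5 of 6 fits that left out 1 library. FTL, the ferritin light chain, was higher at 3159, 2949.5 and 1761 CPM against 932, 1219.8 and 820.4 CPM (1.40 ± 0.27, adjusted p = 0.0032), and AKR1B10, TRIM16L, PIR and TXN were the other higher members. The higher count was 3 without BRG1 knockout replicate 1 and 2 without BRM knockout replicate 1 or 3. NQO1, a widely used NRF2 readout, did not pass in edgeR (0.42 ± 0.17, adjusted p = 0.077), and DESeq2 gave it an adjusted p of 0.034. The list therefore held members on both sides. Against the parental mean its median was 0.24, 0.16 and -0.24 in BRG1 knockout replicates 1 to 3, so only replicate 3 lay below. In BRM knockout replicates 1 to 3 it was 0.41, 0.53 and 0.32.

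Beyond the targets, 27 SWI/SNF subunit genes had 9 higher and 4 lower members, a share of 48.1% beside 41.4% of all tested genes. The lower ones were SMARCA4 itself, BCL7A, SMARCD2 and DPF2, and SMARCA2 was among the higher. DPF3, a histone-reading subunit of muscle and nerve, stood at 2.69, 1.71 and 3.51 CPM against 1 read over the BRM group, a ratio of 293 (95% counting interval 52.1 to 11599). BCL7A was lower (-2.28 ± 0.36), and DPF1 (1.78 ± 0.38), SMARCD3 (1.02) and ARID1B (0.94) were higher. Most core subunits did not pass, among them SMARCB1 (0.31), SMARCC1 (-0.16), SMARCE1 (-0.02) and ARID1A (-0.27). Polycomb genes had 6 lower of 27 and 5 higher, EZH2, BMI1, RNF2, PCGF5 and RBBP7, a share of 40.7% beside 41.4% of all tested genes. Without BRM knockout replicate 3 these counts were 3 and 2, and without BRM knockout replicate 1 or 2 they were 3 and 3. Of 24 other chromatin remodellers HELLS, SMARCA1 and CHD3 were higher and INO80, CHD2, CHD7, BAZ1A and BAZ2B lower, a share of 33.3%. The lower count was 12 without BRG1 knockout replicate 3 and 3 without BRG1 knockout replicate 1 or 2 or BRM knockout replicate 2 or 3.

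The parental libraries, which took no part in the test, place these differences. Of the 3356 genes higher in the BRG1 knockout, the parental mean lay between the knockout means for 1714 (51.1%), above both for 707 and below both for 935. Of the 3886 lower genes it lay between for 2706 (69.6%), above both for 641 and below both for 539. In 57.9% of the higher and 58.0% of the lower genes the BRM knockout mean was the nearer to the parental mean on a log2 scale. Epithelial genes illustrate a list in which the BRG1 knockout lay further from it, with medians of -2.91, -2.93 and -5.81 in its libraries and 0.33, 0.32 and 0.39 in those of the BRM knockout. DNA replication and mitosis genes illustrate lists in which the BRM knockout lay further below, with mitosis medians of -3.95, -2.14 and -3.97 against -1.76, -1.41 and -0.79 in the BRG1 knockout. These positions are descriptions with no test.

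**Figure D4:**
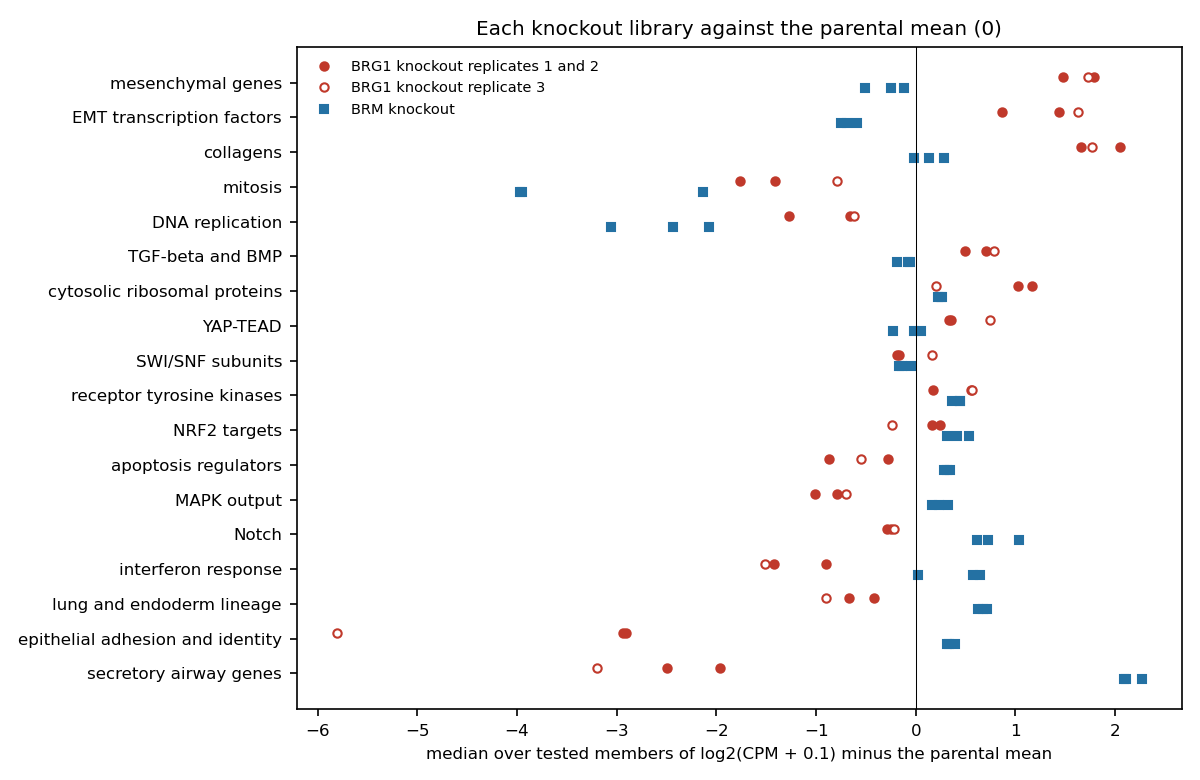
Median over the tested members of 18 gene lists of log2(CPM + 0.1) minus the parental mean, for each BRG1 knockout library (red circles; open for replicate 3) and BRM knockout library (blue squares); 0 is the parental mean. Epithelial genes are lowest in replicate 3, secretory airway genes lie on opposite sides of 0 in the knockouts, and DNA replication and mitosis lie below 0 in all 6 libraries.

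Differences were also spread unevenly along the genome. Of 271 windows of 10 Mb with at least 20 tested genes, 28 had a median log2 fold change at least 0.5 away from that of all genes, 20 lower and 8 higher in the BRG1 knockout, from -0.94 to 0.89. Chromosomes 1 and 8 held 6 of the lower windows each and chromosome 4 held 4, and chromosome 16 held 2 of the higher ones. Chromosome 1 is longer and has more of the 271 windows than chromosome 8, so equal counts are not equal shares. The lowest was 80 to 90 Mb of chromosome 8, where 18 of 30 tested genes were lower and 1 was higher. DNA copy number was not measured here, and its part in these windows was not tested.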

How the data were processed

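H358 RNA was measured in 9 libraries, 3 per group. Per the submitters' processing notes, reads were processed with Salmon against hg38, and DESeq2 is also named; no versions were found in the labels. The deposited tables hold Salmon's estimated counts and TPM per transcript, the TPM having been scaled by the authors for length and depth. Transcripts were matched without their version to GENCODE 29 genes, which placed 203746 of 203835, and estimated counts were summed per gene and rounded. The unplaced rows took up to 0.0193% of the reads of a library. TPM served only for levels per length.

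The BRG1 and BRM knockout libraries alone were fitted with edgeR 4.0.16 (filterByExpr, TMM, robust quasi-likelihood test, R 4.3.3), with Benjamini-Hochberg adjustment over all 17476 tested genes and a threshold of 0.05. Standard errors are approximate, the size of the log2 fold change over the square root of F. CPM is TMM-scaled, parental libraries being placed on the same scale, and 0.1 CPM was added for list medians against the parental mean. A group with no read was set to 3 reads for a bound. A group with 1 to 3 reads gave a ratio with a 95% Clopper-Pearson interval, and both cover counting error only. Estimated reads of near-identical genes are uncertain, and strand use was not stated.

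The comparison and gene lists were chosen with earlier results of these data known. Named genes were the core 4 (SMARCA4, SMARCA2, NFE2L2 and KEAP1), the 10 largest differences in each direction among called, non-overlapping protein-coding genes, and up to 4 called members per list. Further members that define a list, and those named as the few exceptions in it, were picked with values known. Some items that the rule named are not reported here. On data simulated for this comparison (17185 genes), 27 of 100 genes changed 2-fold and 100 of 100 changed 4-fold were recovered, with 5 false calls. Alternatives were each library left out, DESeq2 1.42.0, limma 3.58.1, other scalings and filters, a 2-fold test, all 9 libraries in one fit, a GC and length trend, and a replicate block. BRG1 knockout replicate 3 alone was added after the data were seen. Promoters came from RefSeq (GRCh38.p14), for 12148 tested genes. The AP-1 letters TGANTCA were searched as well. They occurred in 0 of 16 mesenchymal list promoters, in 4.27% of those of all tested genes and in 6.60% of all 27305.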

Additional observations from a re-analysis of the deposited data

How the results depend on the processing

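The count of genes higher in the BRG1 knockout was 3356 and that of lower genes 3886. Leaving out 1 library at a time, the ranges were 2151 to 4009 and 2923 to 4523, lowest without BRM knockout replicate 3 and highest without BRG1 knockout replicate 3. The test against 2-fold gave 1087 and 1801, and this threshold alone sets the smaller counts. Replicate numbers are shared only as numbers: libraries with the same number did not deviate together across genes (r = -0.027, -0.014 and -0.045), and a fit with a replicate block gave 2737 higher and 3529 lower. With a GC and length trend removed the counts were 4514 and 3837, and 3942 and 3447 with the block added. DESeq2 gave 3790 and 4095, limma voom 3412 and 4100, a fit of all 9 libraries 3925 and 4327, and library size without TMM 3405 and 3794. BRG1 knockout replicate 3 alone against the BRM knockout, chosen after the data were seen, gave 3009 and 3558. Without a filter on low counts they were 3495 and 3970, but at least 23 named genes lost their call. Among them were CDH1 (adjusted p = 0.087), GRHL2 (0.079), ERBB3 (0.054), RAB25 (0.07), E2F1 (0.081), MKI67 (0.12) and KRT17 (0.066). The replicate block cost at least 14 named genes theirs, KRT17 (0.1) and RAB25 (0.054) among them. The fit of all 9 libraries cost none, and DESeq2 none among the named genes to which it gave an adjusted p. Nor did a filter of 1 CPM in 3 libraries among the named genes it tested, which leave out KRT5, HEY2, HLA-DPA1 and SLPI. No gene called under both the reported fit and an alternative changed direction. Among the named genes, SLPI was the 1 that changed sign, to -0.90 (adjusted p = 0.42) with replicate 3 alone, and the cause was not tested. The simulation, with 3 libraries a group, gave every gene the biological coefficient of variation of 0.268. In it 100 genes changed 2-fold and 100 changed 4-fold, and 27% of the 2-fold changes were found. Far more genes, 7242, passed in the data, so the share of 2-fold differences missed here cannot be read from it.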

Other observations

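Neuroendocrine genes, which some lung carcinomas switch on, were split among 8 tested members, with 4 higher and 2 lower in the BRG1 knockout. The granule protein SCG2 stood at 9.69, 16.2 and 40.4 CPM against 0.634, 0.297 and 0.624 CPM (5.39 ± 0.62, adjusted p = 0.00031, log2 fold change by edgeR), with replicate 3 the highest library, and the vesicle protein SYP at 3.19, 3.06 and 3.24 CPM against 0.581, 0.742 and 0.823 CPM (2.14 ± 0.31, adjusted p = 0.00085). NCAM1 and SNAP25 were the other higher members. The deubiquitinase UCHL1 stood at 2.10, 1.89 and 0.844 CPM against 15.4, 21.2 and 13.8 CPM (-3.38 ± 0.37, adjusted p = 0.00019) and the enolase ENO2 was lower (-1.24 ± 0.30). Most of these levels were low beside those of epithelial genes such as EPCAM, which reached 766 CPM. Of 18 inflammatory cytokine and NF-kB genes, 5 passed: the chemokines CCL2 and CCL20 were higher, and IL18, BIRC3 and the neutrophil chemokine CXCL8 lower. CXCL8 stood at 1.12, 0.337 and 0.436 CPM against 48.2, 12.4 and 30.0 CPM (-5.58 ± 0.65, adjusted p = 0.0004). The calls of IL18 and BIRC3 were each lost in 1 of 6 fits that left out 1 library. The list's share that passed, 27.8%, was below that of all tested genes, and its counts were 5 higher and 5 lower without BRG1 knockout replicate 3. Without BRG1 knockout replicate 1 the lower count was 6.

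Only 5 of 39 HOX genes, which set position along the body axis, were read enough to be tested. HOXC10 had no read in the BRM knockout and measured 3.70, 2.13 and 4.14 CPM in the BRG1 libraries from 366 reads in all, while HOXD1 was lower (-4.85 ± 0.45). In the integrated stress response list, 5 of 35 were higher and 6 lower, so 31.4% passed, below the 41.4% of all tested genes. The lower count was 3 without BRG1 knockout replicate 1 or BRM knockout replicate 2 and 2 without BRM knockout replicate 3. PSAT1, of serine synthesis, stood at 281, 281 and 513 CPM against 96.9, 181 and 98.2 CPM (1.51 ± 0.33, adjusted p = 0.0067), and TRIB3, a pseudokinase, at 37.6, 33.9 and 33.5 CPM against 66.7, 183 and 78.3 CPM (-1.64 ± 0.36, adjusted p = 0.007). Outside protein-coding genes, 865 long intergenic RNAs were tested, of which 112 were higher and 213 lower in the BRG1 knockout. Over all 17476 tested genes the counts were 3356 and 3886.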
